A study of Mus musculus with 3 samples.

Results

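The genes described here are 10 genes of the neutrophil granulocyte, read in sorted long-term hematopoietic stem cells (LT-HSCs), which sit in the bone marrow, renew themselves and give rise to all blood lineages. They are Mpo, Elane, Prtn3, Ctsg, Ltf, Ngp, Camp, S100a8, S100a9 and Itgam. They were chosen by symbol, with every probe that carries it, which gave 12 of 56600 probes and 10 of 37323 genes. The list was drawn up when results of these arrays were known, so that its levels and differences are a description. All 10 genes gave a signal well above background on all 3 arrays, where 68.9% to 77.7% of all probes did so on each. None differed by 2-fold or more between any pair of arrays, close to the background of 3.62% to 4.41% of all genes in each direction. By the brightest probe of each gene Elane came nearest, whose signal exceeded that of the WT array 1.93-fold in AtmsKO and 1.91-fold on the array labelled Atmp38dKO once each array was scaled to its own 75th percentile.

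The study followed HSC aging under loss of the stress kinase p38α, alone or with loss of ATM, the kinase that signals DNA breaks. LT-HSCs came from the bone marrow of C57BL/6J mice labelled as 11 weeks old, and their total RNA, carrying the Cy3 dye, went on 1 Agilent array for each of 3 genotypes. AtmsKO mice carried CAG-CreERT2 and Atm flox/flox, and Atmp38dKO mice carried p38α flox/flox as well. Per the methods, WT mice were floxed mice without Cre that also received tamoxifen, so that all groups had tamoxifen and floxed alleles. The CAG promoter is active in nearly all tissues, so that deletion is not limited to blood cells. The series text places tamoxifen at about 5 weeks of age and analysis 4 weeks later, which does not add up to the labelled age. Cells were sorted as CD150+CD48-Flt3-CD34- LSK (c-Kit+ and Sca-1+ cells without lineage markers), to which the methods add CD41-, with both sexes used, and how many mice gave an array is not stated.

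Neutrophil granulocytes make their granules in sequence as they mature. Primary (azurophil) granules are filled at the promyelocyte stage with myeloperoxidase (Mpo) and the serine proteases neutrophil elastase (Elane), proteinase 3 (Prtn3) and cathepsin G (Ctsg). Specific granules follow at the myelocyte stage and hold lactoferrin (Ltf), neutrophilic granule protein (Ngp) and the cathelicidin precursor (Camp). S100a8 and S100a9 encode the subunits of calprotectin, a calcium- and zinc-binding protein that is abundant in the cytoplasm of neutrophils and monocytes. Itgam encodes CD11b, the alpha chain of the Mac-1 integrin on granulocytes and macrophages. Primary granule genes, Mpo among them, are transcribed at low levels before commitment in multipotent progenitors, whereas the specific granule genes belong to later granulocytes.

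With a single array per genotype there is no replicate error, no test was run, and what is compared are arrays and not conditions. Signals are listed in the order WT, AtmsKO, Atmp38dKO-labelled array, and differences, on the log2 scale, in the order AtmsKO against WT, Atmp38dKO-labelled array against WT, Atmp38dKO-labelled array against AtmsKO. Probes well above background made up 68.9% to 77.7% of all probes on the 3 arrays, and no spot was saturated. Atm had signals of 88.8, 16.3 and 49.0 at one probe and 87.0, 23.9 and 86.5 at the other. Mapk14, the gene of p38α, had 469, 558 and 616 at one probe and 295, 260 and 345 at the other. After scaling, Mapk14 was no lower than WT on the array labelled as the double knockout, with differences of 0.18 and 0.01. Atm differed from WT by -1.07 and -0.22 there, over 2-fold lower at only 1 of its 2 probes. On the AtmsKO array the same Atm probes had -2.37 and -1.79. Which exons were deleted is not stated, so it is not known whether the probes of either gene lie in them. Whether the label is right was not tested, and that array is called the Atmp38dKO-labelled array throughout. All 12 HSC marker genes checked, among them Kit, Ly6a, Slamf1, Procr, Mecom, Hlf, Fgd5, Hoxb5, Meis1, Gata2 and Ndn, were well above background on every array.

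Of the 10 genes, 8 had 1 probe and Itgam and Mpo had 2. All 36 values of the 12 probes on the 3 arrays were well above background. Each probe is 60 bases long and was printed once per array. On the mm9 build 9 probes lie in a single stretch of genome and 3 (Prtn3, Ngp and the brighter Mpo probe) span a splice junction. These 3 can pair over their full length with spliced RNA only. The sequences shown are those on which the values of Elane, Prtn3, Ctsg, Mpo and Itgam rest, 5′ to 3′ as designed, whole or as a stretch of 30 bases. Capitals mark a run of CA repeats in the first Itgam probe and, in the Elane probe, the letters AATAAA of the canonical polyadenylation signal, which 9.77% of all probes hold as designed and 13.3% on either strand.
Itgam, brighter probe, bases 1 to 30: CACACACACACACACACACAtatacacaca
Itgam, other probe: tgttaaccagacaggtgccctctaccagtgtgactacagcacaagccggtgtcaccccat
Mpo, brighter probe, bases 1 to 30: tagaggttgggagtctgccgggagaaggac
Mpo, other probe: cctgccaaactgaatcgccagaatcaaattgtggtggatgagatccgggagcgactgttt
Elane, bases 31 to 60: ttactacAATAAAagcagcctttgttttgt
Prtn3: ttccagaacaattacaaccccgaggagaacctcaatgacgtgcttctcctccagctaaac
Ctsg, bases 1 to 30: gacgctttgcaccaagatatcagagacctg

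To find which member probes share a stretch with probes of other genes, every member probe was compared with all other probes on the array. The brighter Itgam probe, which begins with a CA run of 20 bases, had a 20-base stretch in common with 29 probes of other genes and, on the complementary strand, with 47. The 11 other member probes had none in common with any other gene's probe in either orientation. Only probe sequences were compared, so that pairing with the rest of other genes' transcripts was not tested.

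Elane, which encodes neutrophil elastase, differed most among the 10 genes by their brightest probes. Its probe lies at chr10:79350902-79350961 on the plus strand, from base 860 of the transcript, and holds the AATAAA shown above. The signal was 42.4 intensity units for WT, 77.6 for AtmsKO and 93.8 for the Atmp38dKO-labelled array. The WT array was thus the low one, and after scaling both mutant arrays lay together. On the normalized scale, log2 signal minus the log2 of the array's 75th percentile, the difference from WT was 0.95 ± 0.21 in AtmsKO and 0.93 ± 0.21 in the Atmp38dKO-labelled array. Between both mutant arrays it was -0.02 ± 0.21. The ± values of differences are standard errors from the scanner software's error model and cover measurement within an array only. The 6 to 8 probes of like brightness that were printed 10 times had a median SD between spots of 0.11, 0.13 and 0.18 log2 units on the 3 arrays, or 0.15, 0.19 and 0.26 for a difference of single spots. Both Elane differences from WT were larger than this spread within an array, which holds no variation between arrays or mice. Both were 0.52 with the normexp background correction, whose added offset of 50 units shrinks the differences of dim probes in advance. Of all genes measured, 4.18% were at or above Elane in the first of these comparisons and 4.59% in the next. Both differences rest on the same WT value.

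Prtn3, whose product proteinase 3 is a close relative of elastase, lies next to Elane on chromosome 10, and their probes are 6216 bases apart. Its probe (chr10:79343869-79344685, plus strand, across a junction) had signals of 320.0, 302 and 376. The normalized values were the same within 0.02 log2 units, at 1.66, 1.65 and 1.67. The differences were -0.01 ± 0.20, 0.02 ± 0.20 and 0.02 ± 0.20. The neighbouring genes Elane and Prtn3 therefore differed from WT by unlike amounts on the same arrays. Whether the difference between both genes would recur in other mice was not tested.

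Ctsg encodes cathepsin G, the serine protease stored beside elastase. Its probe (chr14:56718795-56718854, minus strand) had signals of 52.8, 49.8 and 90.4. Here the Atmp38dKO-labelled array was the high one, by 0.56 ± 0.21 log2 units over WT and 0.57 ± 0.21 over AtmsKO, and the AtmsKO and WT arrays differed by -0.01 ± 0.21. The order of the arrays for Ctsg was therefore not that for Elane.

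Mpo, the peroxidase that forms hypochlorous acid, was read by 2 probes on chromosome 11. The brighter one (chr11:87617102-87617877, plus strand, across a junction) had signals of 304.6, 372 and 394, and differences from WT of 0.37 ± 0.20 and 0.16 ± 0.20. The other (chr11:87615121-87615180) had 43.2, 53.8 and 96.5, and 0.39 ± 0.21 and 0.94 ± 0.21. Both probes were higher on the AtmsKO array than on WT by nearly the same amount. For the Atmp38dKO-labelled array against AtmsKO they went in opposite directions, at -0.21 ± 0.20 for the brighter probe and 0.55 ± 0.21 for the other. The value of Mpo on the Atmp38dKO-labelled array thus depends on the probe, and as the mean over both probes its difference from WT was 0.55.

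**Figure D1:**
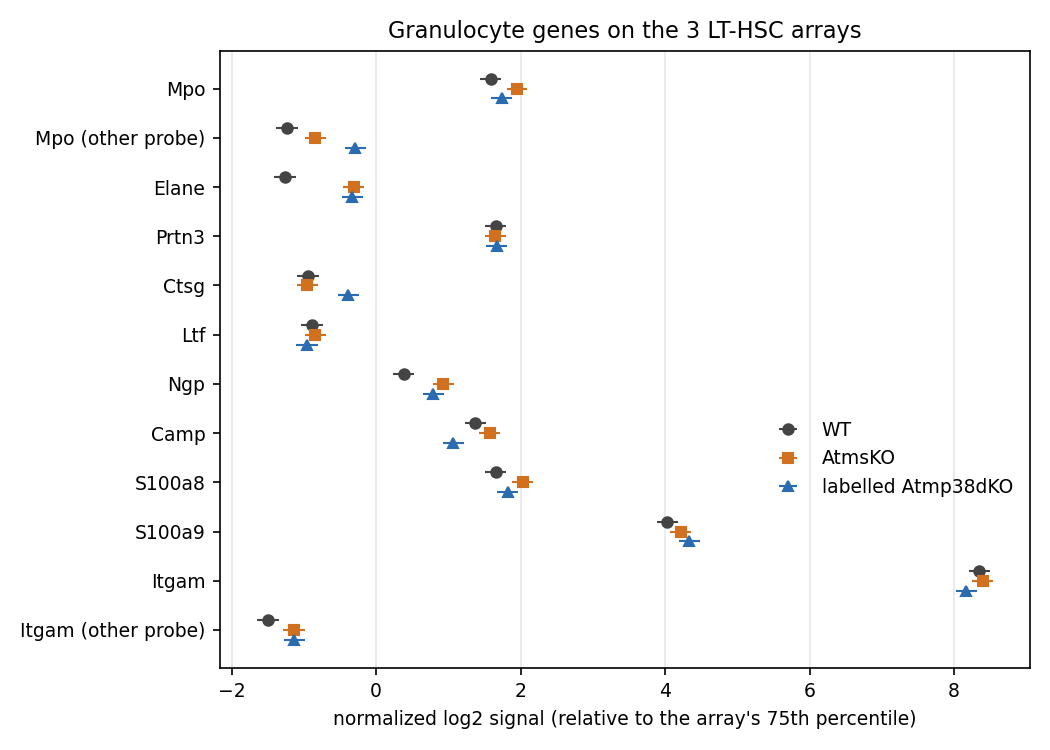
Normalized log2 signal (log2 of the processed signal relative to the array's 75th percentile) of the 12 probes of 10 granulocyte genes on the WT (circles), AtmsKO (squares) and Atmp38dKO-labelled (triangles) arrays, 1 each, with bars for the scanner software's error of a single value. Elane is lower on the WT array than on both others, Ctsg is higher on the Atmp38dKO-labelled array, and Prtn3 and Ltf lie together on all 3.

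The specific granule genes lie on chromosome 9, Ltf and Camp at either side of Ngp. Ngp, a cystatin-like granule protein, had signals of 132, 183 and 204 (probe chr9:110324266-110324814, plus strand, across a junction). It was higher on both mutant arrays than on WT, by 0.54 ± 0.20 and 0.41 ± 0.20 log2 units, or 1.46-fold and 1.33-fold. At this brightness the SD of a difference between single spots of 1 array was 0.09 to 0.11, and both values were larger. That SD holds no variation between arrays or mice. Camp, the precursor of the antimicrobial peptide CRAMP, had 263, 286 and 247 (chr9:109749911-109749970, minus strand). Relative to WT, its difference was 0.20 ± 0.20 in AtmsKO and -0.30 ± 0.20 in the Atmp38dKO-labelled array. Between both mutant arrays the difference was -0.50 ± 0.20, the lowest of the 10 genes in that comparison, and 10.8% of all genes were at or below it. Ltf, the iron-binding lactoferrin, had 54.9, 53.7 and 60.7 (chr9:110942873-110942932, plus strand), with differences of 0.05 ± 0.21, -0.07 ± 0.21 and -0.11 ± 0.21. After scaling, the AtmsKO array was the highest for all 3 genes, although by less than the standard error over WT for Camp and Ltf, and Ngp alone was higher than WT on both mutant arrays.

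S100a8 and S100a9 lie on chromosome 3, with their probes 22735 bases apart. S100a8 had signals of 319.6, 394 and 417 (chr3:90473778-90473837, plus strand). The differences against WT were 0.38 ± 0.20 and 0.17 ± 0.20. S100a9 had 1659.5, 1788 and 2375 (chr3:90496573-90496632, minus strand), and 0.18 ± 0.20 and 0.30 ± 0.20. Both calprotectin genes had higher values on each mutant array than on WT, but after scaling S100a8 was highest on the AtmsKO array and S100a9 on the Atmp38dKO-labelled array, and the smaller difference of each gene was within its standard error. For the latter array against AtmsKO they had -0.21 ± 0.20 and 0.12 ± 0.20.

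Itgam was read by 2 probes that differed widely in signal. The brighter probe (chr7:135261755-135261814, plus strand, from base 4431 of the transcript) had 33134, 32383 and 33895 units. The other (chr7:135212140-135212199, plus strand, from base 270) had 35.9, 43.9 and 53.8. Antibodies against Mac-1, the protein of Itgam, were part of the lineage mix, so that cells with the protein on their surface were removed in the sort. The bright probe is the one that begins with the CA run. On the array 37 probes hold a CA run of 18 bases or more, and 30 of them (81.1%) were over 10000 units on each array, against 499, 495 and 546 of all 56600 probes (0.882%, 0.875% and 0.965%). Their median signals were 25888.5, 24513 and 27051, where those of all probes were 22.4, 20.7 and 26.3. Of 60 probes with the complementary TG run, 60 were over 10000 units on every array. The part of the run in the signal of the Itgam probe was not tested.

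The differences from WT at the bright Itgam probe were 0.04 ± 0.20 and -0.18 ± 0.20. The other probe had 0.37 ± 0.22 and 0.37 ± 0.21. They had opposite signs for the Atmp38dKO-labelled array, and neither was over 1.5-fold from WT. The counts and medians over the 10 genes were computed with the bright probe, by the rule used for every gene, and are also given with the other.

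**Figure D2:**
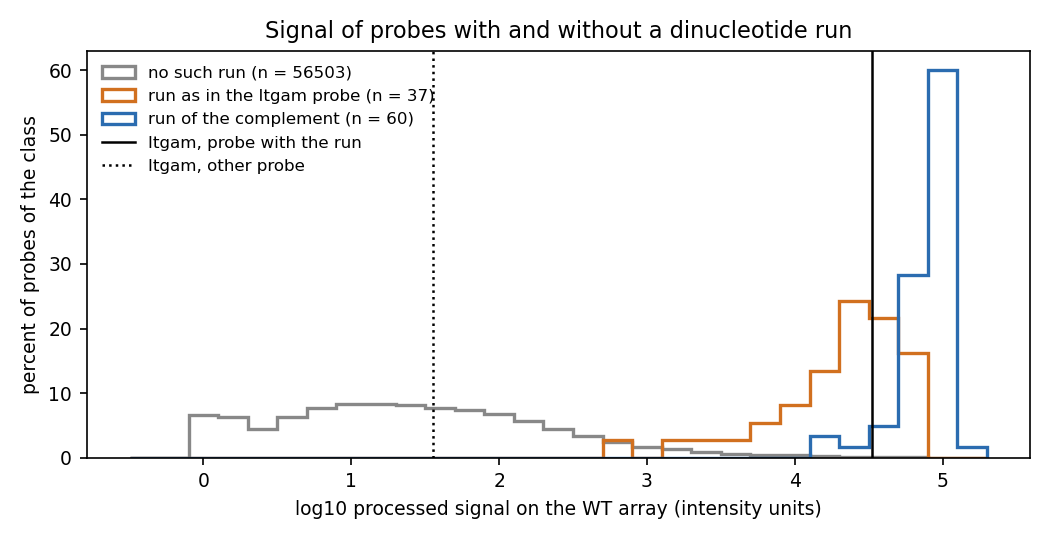
Distribution of the processed signal on the WT array (log10 of intensity units, horizontal axis) as a percent of the probes of each class (vertical axis), for the 37 probes with a dinucleotide run of 18 bases or more as in the Itgam probe, the 60 probes with the complementary run and all others, with vertical lines at both Itgam probes. The bright Itgam probe, at 33134 units, lies among the probes with such a run, and the other, at 35.9, lies among the probes without.

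To ask how far the 10 genes differed when Atm alone was deleted, the AtmsKO array was set against WT. None of the 10 genes was 2-fold higher or lower there, where 3.81% of 29041 genes were at least 2-fold higher and 3.98% at least 2-fold lower. In this comparison 8 of the genes had a value above 0 and 2, Prtn3 and Ctsg, had one just under it (-0.01 each). Of all genes, 51.0% were above 0. The values of Itgam, Ltf, Camp and S100a9 were within their standard errors. The median was 0.19 (range -0.01 to 0.95), where that of all genes was 0.01 and their middle 50% lay from -0.24 to 0.25. With Itgam read by its other probe the median was 0.28. At 1.5-fold, a limit set after the values were seen, Elane was the only one higher, beside 9.98% of all genes, and none was lower, beside 10.1%.

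To ask the same of the deletion of both genes, the Atmp38dKO-labelled array was set against WT. Again none was 2-fold apart, where 3.95% of 30646 genes were at least 2-fold higher and 4.41% at least 2-fold lower. The value was above 0 for 7 genes and below it for Ltf, Camp and Itgam, and that of Itgam was above 0 by its other probe. Of all genes, 52.1% were above 0. By the brightest probes the values of Mpo, Prtn3, Ltf, S100a8 and Itgam were within their standard errors. The median was 0.16 (range -0.30 to 0.93), where that of all genes was 0.02, and 0.23 with the other Itgam probe. By the brightest probes Elane was again the only one 1.5-fold higher, beside 10.8% of all genes, and none was lower, beside 10.6%. This comparison shares the WT array with the previous one.

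What the loss of p38α adds to that of Atm is the question of the Atmp38dKO-labelled array against AtmsKO, with the reservation on its label. None of the 10 genes was 2-fold apart, where 3.7% of 30202 genes were at least 2-fold higher and 3.62% at least 2-fold lower. The value was below 0 for 7 genes and above it for Ctsg, S100a9 and Prtn3, where 49.5% of all genes were above 0. The values of Elane, Prtn3, Ltf, Ngp and S100a9 were within their standard errors, and those of Mpo, S100a8 and Itgam just past them. By their other probes Itgam had 0.001 and Mpo 0.55. The median was -0.13 (range -0.50 to 0.57), and -0.07 with the other Itgam probe. That of all genes was -0.005, and their middle 50% lay from -0.24 to 0.25. None was past 1.5-fold, beside 10% of all genes higher and 8.75% lower. A share of 0 of 10 genes is close to the background in each comparison, and the list was not large enough for the count to say more.

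**Figure D3:**
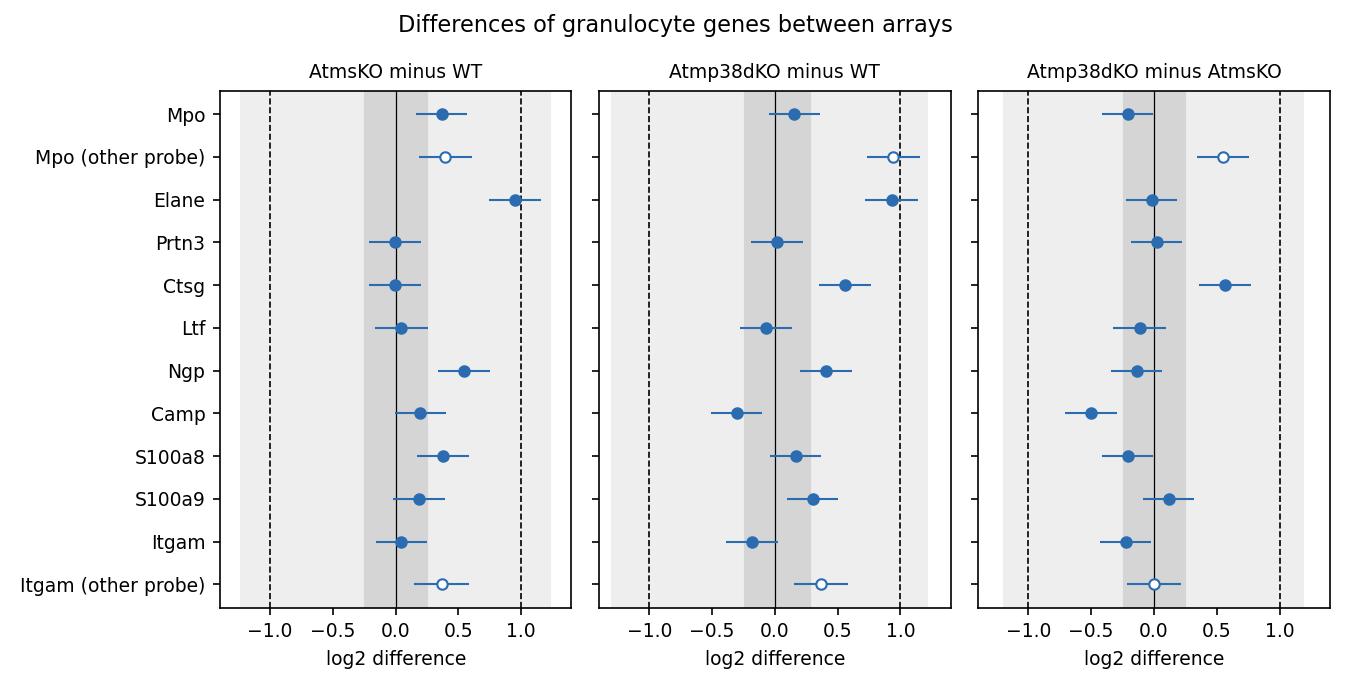
Differences in normalized log2 signal between each pair of arrays for the 12 probes (filled points, the brightest probe of a gene; open points, the other probe), with bars for the standard error of the scanner software. The dark band holds the middle 50% of all genes and the light band the middle 95%, and dashed lines stand at 2-fold: no point lies past them, and Elane lies close to the line in both comparisons with WT, beside the other Mpo probe on the Atmp38dKO-labelled array.

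Bulk RNA of sorted cells was measured, and in such samples fewer cells of a type and less RNA per cell cannot be told apart. Other genes of the same granules were listed beside the 10. Of 12 further primary granule genes, none was 2-fold higher in any comparison and 1, Ctsc, was 2-fold lower in all 3. Ctsc encodes cathepsin C, which activates elastase, proteinase 3 and cathepsin G by trimming their precursors. Its brightest probe had signals of 240, 103 and 53.6, with differences from WT of -1.15 and -2.38. At its 2 other probes the differences were -0.38 and -0.59 at one and 0.12 and 0.01 at the other, so that the value of Ctsc depends on the probe. Nkg7, a membrane protein of cytotoxic granules, had 164, 170 and 286. The median difference of this list was 0.09, -0.11 and -0.35 in the 3 comparisons.

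Of 12 further specific granule genes, 11 were well above background on at least 1 of the AtmsKO and WT arrays and none was 2-fold apart. On the Atmp38dKO-labelled array, Fcnb, a ficolin of neutrophil granules, was well above background with 19.6 units and was not on the other arrays. This was at least 2.81 times the WT value, taking for WT the dimmest signal still well above background, or the gene's own if brighter, as in the other bounds given here. Cybb, the large subunit of the phagocyte oxidase, had 20.04, 12.3 and 35.5 and was 1.24 log2 units higher on the Atmp38dKO-labelled array than on AtmsKO. With Fcnb, Cybb was 1 of 2 genes of this list past 2-fold between both mutant arrays. For the Atmp38dKO-labelled array against WT, Cybb had 0.61 at this probe and -0.93 at its other. Hp, which encodes haptoglobin, had 76.5, 58.2 and 57.0, and Orm1, an acute phase protein, had 7.83, 11.8 and 9.69, near the background. The list medians were 0.05, 0.01 and -0.27 in the same order of comparisons.

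Of 12 genes of mature neutrophils, 8, 8 and 9 were well above background on the arrays, and Stfa2l1 and Mmp25 were on none. Ly6g, part of the Gr-1 antigen that the lineage mix removed, had signals of 18.4, 17.6 and 15.3. Clec4d, a C-type lectin of myeloid cells, was not well above background on WT, and exceeded it by at least 2.98-fold in AtmsKO and at least 4.47-fold in the Atmp38dKO-labelled array. The formyl peptide receptor Fpr1 was lower there than on WT by at least 2.06-fold. Retnlg, a resistin-like protein of neutrophils, had 12.0, 19.5 and 10.02 units, Wfdc21 50.4, 40.6 and 95.9, and the chemokine receptor Cxcr2 15.1, 8.03 and 10.7. Retnlg differed by -1.25 between both mutant arrays, past 2-fold. The list medians were -0.14, -0.27 and 0.12 in the order used above.

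The regulators of granulocyte development were well above background on all arrays for 12 of 12 genes. Irf8, which directs progenitors towards monocytes and away from neutrophils, was 2-fold higher on the AtmsKO array than on WT (1.04) at signals of 6.17 and 12.0, near the background. No other regulator was 2-fold apart. Cebpb, a factor of emergency granulopoiesis, had 1138, 1014 and 752 units, a difference of -0.81 for the Atmp38dKO-labelled array against WT. Cebpd had 17.2, 30.8 and 19.6. The list medians were 0.06, -0.04 and -0.26.

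Partners of Itgam and other phagocyte receptors were listed with their oxidase subunits. Itgb2, the beta chain that pairs with the CD11b protein, had 305, 511 and 721 units at its single probe. Itgb2 was 0.82 log2 units higher on the AtmsKO array and 1.02 higher on the Atmp38dKO-labelled array than on WT, past 2-fold in the latter. The inhibitory receptor Fcgr2b was at least 2.03-fold higher on that array than on WT. Ncf4, an oxidase subunit, had 28.9, 26.8 and 58.3, and Itgax, the integrin alpha chain CD11c, had 9.12, 11.1 and 15.4. The medians of 9, 10 and 10 genes measured were 0.07, 0.13 and -0.01.

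Of 10 other S100 genes, S100a5 was 2-fold higher on both mutant arrays than on WT, at 14.5, 45.9 and 41.5 units, and S100a4 on the Atmp38dKO-labelled array, at 713, 1071 and 1883. S100a4 had differences from WT of 0.66 and 1.19, and S100a5 of 1.74 and 1.30. S100a6 had 1176, 1617 and 1704, with 0.54 and 0.32. The list median was 0.35, 0.08 and -0.21, beside 0.38, 0.17 and -0.21 for S100a8 and 0.18, 0.30 and 0.12 for S100a9.

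**Figure D4:**
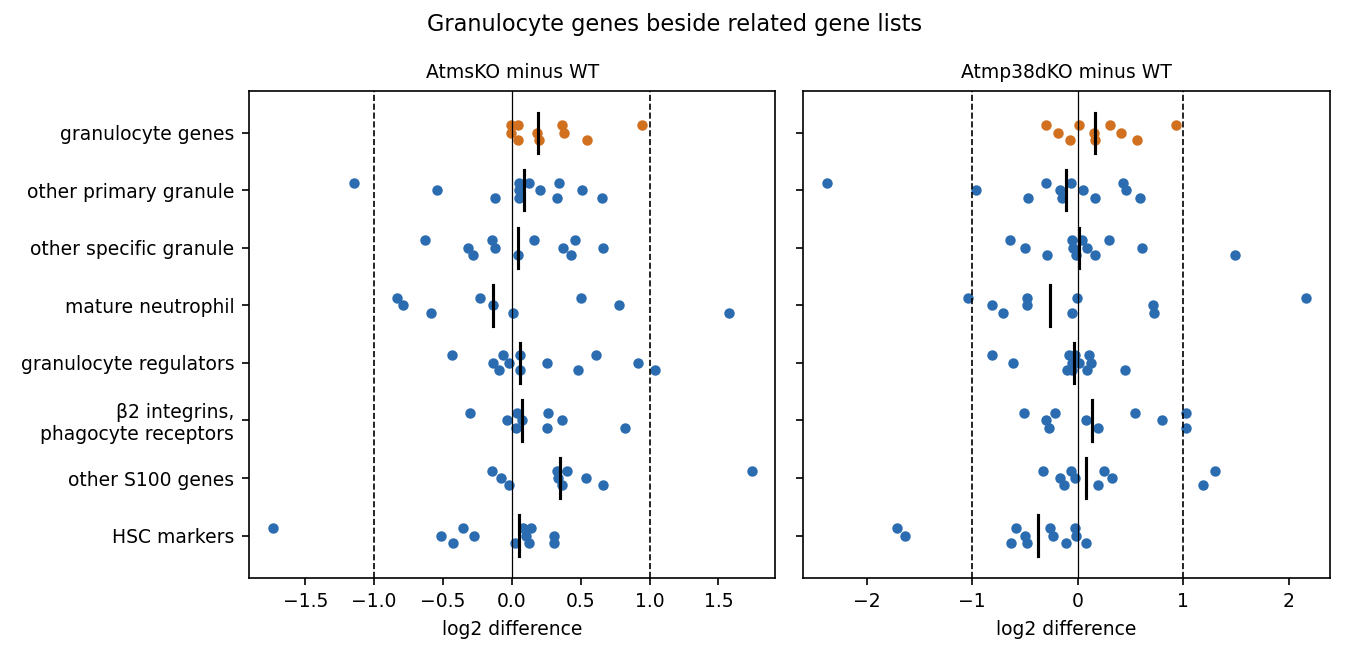
Log2 differences of AtmsKO (left) and of the Atmp38dKO-labelled array (right) against WT for the 10 granulocyte genes (orange) and for the related gene lists (blue), 1 point for each gene well above background on at least 1 array at its brightest probe, with a bar at the median and dashed lines at 2-fold. Single genes of the other lists lie past 2-fold, and none of the 10 does. Of all genes, 3.81% to 4.41% lie past it in each direction, and none of 10 is close to that share.

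Markers of other cells that a sort could carry over were read on the same arrays. Summed signals of these lists are given relative to the array's 75th percentile. Of 10 monocyte and macrophage markers, 6, 6 and 5 were well above background, with sums of 33.8, 32.3 and 32.1. Ccr2, Fcgr1 and Cx3cr1 were among those not well above background on any. Mast cell and basophil markers were well above background for 4, 4 and 6 of 8 (sums 2.90, 3.004 and 3.43), and eosinophil markers for 5, 6 and 7 of 8 (1.44, 2.07 and 1.94). Megakaryocyte and platelet markers were for 8 of 8 on each, with 22.6, 38.97 and 27.1. Erythroid markers were for 9, 10 and 10 of 10 (25.8, 23.3 and 24.8), B cell markers for 7, 7 and 9 of 10 (6.53, 6.25 and 6.40) and T cell markers for 7, 6 and 8 of 8 (5.08, 5.12 and 6.09). The HSC markers, all well above background, summed to 148.0, 148.3 and 131.7, lowest on the Atmp38dKO-labelled array. Their median differences were 0.05, -0.37 and -0.21. Of the 12, Ndn was 2-fold lower on the AtmsKO array than on WT, beside 3.98% of all genes. Fgd5 and Hoxb5 were 2-fold lower on the Atmp38dKO-labelled array than on WT, beside 4.41%. Against AtmsKO that array was 2-fold lower at both, beside 3.62%, and 2-fold higher at Ndn, beside 3.7%. These are values of the brightest probes, and the other Fgd5 probe was well above background on only 1 array. After this scaling Ctsg and the mast cell and T cell sums were highest on the Atmp38dKO-labelled array. The mast cell, eosinophil, megakaryocyte and T cell sums were lowest on WT, as Elane was, but for mast cells and T cells the AtmsKO sum was nearly the same. The monocyte, erythroid and B cell sums were highest on WT. Some sums rest largely on 1 gene: on WT, Tpsb2 gave 224 of 294 units for mast cells, and Csf1r 2530 of 3431 for monocytes. Car2 gave 1879 of 2615 there for erythroid cells. Pf4 gave 1020 of 2289 megakaryocyte units on WT and 2366 of 3750 on AtmsKO. Against WT, 5 of 10 erythroid markers were higher in AtmsKO and 8 on the Atmp38dKO-labelled array, with medians of 0.01 and 0.32. Of 8 megakaryocyte markers 7 and 6 were higher, with medians of 0.44 and 0.25. The 75th percentile itself was 102, 96.2 and 118 units. The part of other cells in the values of the 10 genes was not tested.

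Genes of the surface proteins used to leave cells out were read as well, and 9, 9 and 8 of the 9 listed were well above background, none of them 2-fold apart between any pair of arrays. Among the 9 is Ptprc, of whose protein CD45 only the B220 form was in the lineage mix. Itgam counts here by its bright probe, and its other probe was well above background too. Cd34 had signals of 1694, 1666 and 2185, Flt3 79.4, 70.3 and 101, and Cd48 17.2, 21.2 and 34.0. At its brightest probe Cd48 was higher on both mutant arrays, by 0.38 and 0.77 log2 units after scaling. At its other probe the differences from WT were 0.08 and 0.64. The messages of these 3 genes were well above background although the sort selected against their proteins.

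The genes most like Elane over the 3 arrays were found by the root mean square distance between normalized log2 levels centred on their own mean. With 3 arrays such a likeness is easily met, and 133 of 16467 named genes well above background on all arrays were within 0.1 log2 units. The closest were Cib4 (distance 0.012), Gm10457 (0.022) and Cyp20a1 (0.022), with signals of 12.5, 23.0 and 27.3 for Cib4 and 52.1, 91.7 and 113 for Cyp20a1. None of the 9 other granulocyte genes was among the 3.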

How the data were processed

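Total RNA of sorted LT-HSCs from mice labelled WT, AtmsKO and Atmp38dKO was read on 1 single-colour Agilent array each. The deposited scanner files hold processed intensity per spot, which the authors' contractor made in Agilent Feature Extraction 11.5.1.1, background-subtracted and not normalized between arrays, with the software's error of each intensity, the raw mean and local background intensity, and flags. Surrogate values stand for spots not above background. The authors' table of deposited log2 values equalled log2 of that intensity minus the array's 75th percentile within 0.02 for 99.8% or more of probes, and it was used as an alternative. Precision is limited by the number of arrays.

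Control spots, outlier spots (WT 57, AtmsKO 75, Atmp38dKO-labelled 83) and 5 probes without a value were left out, and spots of a probe were averaged. The measure was log2 intensity minus that array's 75th percentile of non-control probes, so that a change in total RNA per cell is not seen. Dimmer values were set to the lowest signal well above background (5.33, 6.12 and 4.97 units). A gene was its brightest probe, and was counted at 2-fold if the brighter array was well above background. Groups came from the sample titles. Probe positions are on mm9 as in the file headers. Exon and UTR boundaries on that build were not used here. Names came from RefSeq (GRCm38.p6, names only), which matched 32991 of 56600 probes. The 10 genes and the 15 lists beside them (151 genes in all) were chosen with earlier results of these data known. Named are all 10 genes, Atm, Mapk14, up to 3 genes per related list with the largest difference among genes detected on every array, the 3 genes most like Elane and, after their values were seen, the genes behind small counts and the markers given in the text. The values of some list members are not reported here. Alternatives were median centring, quantile normalization, normexp background (offset 50), no floor, the authors' log2 values, the mean over probes, detection on both arrays and other fold limits. Counting was tested on simulated data. Python 3.11.15, pandas 2.3.3, numpy 2.4.6, matplotlib 3.10.9, R 4.3.3 and limma 3.58.1 were used.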

Additional observations from a re-analysis of the deposited data

How the results depend on the processing

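The count of granulocyte genes past 2-fold was 0 in each comparison under all alternatives run. A count of 0 at 2-fold fixes that at 4-fold and 8-fold in advance. At 1.5-fold, a limit added after seeing the data, it was 1 for AtmsKO against WT and 1 for the Atmp38dKO-labelled array against WT, Elane in both. The median kept its direction under 8 of 8 alternatives in each comparison, from 0.14 to 0.28 for AtmsKO against WT, 0.14 to 0.23 for the Atmp38dKO-labelled array against WT and -0.14 to -0.07 for it against AtmsKO. Of 213 single values under the alternatives, 206 moved by less than 0.26 log2 units, the largest SD of a difference between spots of 1 array. Much of this was fixed in advance. All member values were well above background, so that no floor and detection on both arrays could not move them. The authors' values are nearly the same measure as the main one, and the mean over probes can move only Itgam and Mpo. These counts and the kept direction of the medians therefore say little on robustness. The normexp background adds an offset of 50 units to every signal, which shrinks the differences of dim probes in advance. With it Elane moved to 0.52 against WT on both mutant arrays, and Ctsg to 0.31 for the Atmp38dKO-labelled array against WT. The mean over probes moved Mpo to 0.55 for the Atmp38dKO-labelled array against WT and to 0.17 against AtmsKO, where the sign turned. The mean over probes also moved Itgam to 0.09 for the Atmp38dKO-labelled array against WT, and its other probe, an alternative added after seeing the data, moved it to 0.37 against WT on both mutant arrays. The sign turned in 4 of 30 gene and comparison pairs, those of Itgam (2), Mpo and Ctsg, the last at a difference of -0.01. Signal over background limits the dim genes of the related lists, where a difference of a few units makes a 2-fold value. Leaving out 1 array does not apply with 1 per group. No paired analysis was possible because there is 1 array per genotype.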
